A study of Homo sapiens with 16 samples.

Results

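The expression of 46 genes of the lysosome was followed in 2 human acute myeloid leukaemia cell lines. The 46 genes are those of a list of lysosomal enzymes, membrane proteins, acid pump subunits and transcription factors whose symbols were looked up in the table of 60603 genes, and 46 of 46 were found. They comprise 10 proteases, 11 glycosidases, 7 genes of lipid handling together with progranulin, 2 acid phosphatases, 5 membrane proteins, 3 transcription factors and 8 subunits of the proton pump. RNA came from SKNO-1, a myeloid line with the RUNX1-RUNX1T1 fusion, and from U-937, a monocyte-like line. Each line received the solvent DMSO, all-trans retinoic acid (ATRA), Corin, or ATRA plus Corin for 24 h, each agent at 0.1 µM, and each of the 8 groups has 2 libraries. ATRA is a ligand of the retinoic acid receptors, and Corin blocks both enzyme activities of the CoREST corepressor complex, the demethylase LSD1 and the histone deacetylases HDAC1 and HDAC2. SKNO-1 was grown with GM-CSF at 10 ng/mL in every group, so a difference between the lines and a difference between their media cannot be told apart. The labels do not say that the 2 libraries of a group came from separate cultures, so p-values measure only the spread between these libraries.

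Lysosomes are acidic organelles in which hydrolases break down proteins, sugars and lipids delivered by endocytosis, phagocytosis and autophagy. The V-ATPase, a membrane pump made of a V1 sector that hydrolyses ATP and a V0 sector that carries protons, keeps their lumen acid. TFEB, TFE3 and MITF, the MiT/TFE factors, bind a palindromic E-box, the CLEAR element, in the promoters of many lysosomal genes, and monocytes and macrophages are known for their high content of lysosomal hydrolases.

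The promoter sequences come first because several members carry letters of this element close to the start of transcription. RefSeq promoter windows (GRCh38.p14, 250 bases before to 50 bases after the start) were matched for 33 of the 46 members, and 13 had no entry: ATP6V1A, ASAH1, CTSS, PSAP, ATP6V1B2, ATP6V1H, LGMN, NAGLU, CTSB, LAMP2, ATP6V0D2, HEXA and MANBA. The octamer TCACGTGA, searched on both strands, occurred in 5 of 33 members (15.2%) and in 1.18% of all 27305 symbols with a window. The variant TCATGTGA, whose other strand reads TCACATGA, occurred in 5 further members (15.2%) and in 1.24% of all symbols. Counted over windows, since a gene can have several starts, TCACGTGA was in 9.62% of the 52 member windows and in 0.98% of all 35116 windows, and TCATGTGA in 9.62% and 1.0%. The median GC content was 67.67% in the member windows and 58.33% over all symbols, and its part in these shares was not tested. A match is a description of letters, not of a bound site. In the 30-base stretches below, read 5′ to 3′ on the strand of the gene, the capitals mark the octamer.
MCOLN1 chr19:7522571-7522600 plus strand: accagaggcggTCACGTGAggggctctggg
MCOLN1 chr19:7522598-7522627 plus strand: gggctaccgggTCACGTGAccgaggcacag
GAA chr17:80101493-80101522 plus strand: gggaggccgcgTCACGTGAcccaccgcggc
LAMP1 chr13:113297199-113297228 plus strand: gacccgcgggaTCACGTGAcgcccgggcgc
CTSA chr20:45891298-45891327 plus strand: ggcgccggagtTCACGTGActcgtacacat
ATP6V0D1 chr16:67481199-67481228 minus strand: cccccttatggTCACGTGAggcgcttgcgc
GRN chr17:44345068-44345097 plus strand: ctgtcccgacgTCACATGAttctccaatca
GRN chr17:44345084-44345113 plus strand: tgattctccaaTCACATGAtccctagaaat
CD63 chr12:55729094-55729123 minus strand: ctgttaccgcgTCACATGAgggaggccggc
ATP6V0C chr16:2513912-2513941 plus strand: cggggcccaggTCATGTGAcgcggccgcgg
TPP1 chr11:6619425-6619454 minus strand: gaatatagagcTCATGTGAtccgtcacatg
ACP5 chr19:11577743-11577772 minus strand: aagtccagggcTCACATGAcccaaggggag

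GRN and CTSD, the 2 members that rose most with ATRA in U-937, have different letters before the start. The GRN and CTSD stretches below lie before a RefSeq start and outside every annotated exon, which was not checked for the 30-base stretches above. The CTSD stretch lies inside the annotated span of the gene, 396 bases downstream of its first annotated base. It thus precedes a RefSeq start that is not the outermost one. Of the 30-base stretches, those of CTSA, CD63 and ACP5 also lie inside the spans of their genes. The TPP1 stretch lies partly inside, its octamer included. The MCOLN1 stretch at 7522598-7522627 runs past the start into the gene. The GRN stretch holds the variant octamer at 2 places, while the CTSD stretch holds neither octamer but holds the shorter E-box CACGTG, which the octamer TCACGTGA contains and which 9 of 33 members (27.3%) and 8.77% of all symbols carried.
GRN chr17:44345052-44345245 plus strand: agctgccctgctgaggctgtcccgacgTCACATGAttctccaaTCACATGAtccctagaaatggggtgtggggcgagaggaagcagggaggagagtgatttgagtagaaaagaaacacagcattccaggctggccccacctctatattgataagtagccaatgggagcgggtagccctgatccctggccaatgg
CTSD chr11:1763965-1764177 minus strand: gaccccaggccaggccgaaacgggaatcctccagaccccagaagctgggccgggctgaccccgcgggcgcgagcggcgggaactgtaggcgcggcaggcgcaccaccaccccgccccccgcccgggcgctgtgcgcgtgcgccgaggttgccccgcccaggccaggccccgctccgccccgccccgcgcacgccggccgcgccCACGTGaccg

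The deposited estimated counts gave library totals of 32.8 to 37.8 M in SKNO-1 and 28.4 to 37.6 M in U-937. After a filter on low counts, 17479 genes were tested in SKNO-1, 45 of the 46 members among them, and 17717 in U-937, with 42 members. ATP6V0D2 was not tested in either line, and CTSL, LGMN and ACP5 were not tested in U-937. The SKNO-1 DMSO libraries stood apart from each other: over 37 members the SD of their log2 difference was 0.33, with the largest difference, 0.92, in GRN, against 0.13 or less in the other SKNO-1 pairs. In that pair the difference followed GC content across genes (r = 0.80), which are not independent replicates. It did so less in the U-937 pairs with DMSO (r = 0.57) and with both agents (0.40) and in the SKNO-1 ATRA pair (-0.44), while r lay between -0.17 and 0.11 in the other 4 pairs. The counts of members called in SKNO-1 against DMSO are therefore also given without DMSO library 1 and without DMSO library 2. Such a fit holds 1 DMSO library and takes its spread from the treated pairs alone. A call kept in it therefore cannot show that the call withstands the split of the DMSO pair. As a check of the labels, the fusion partner RUNX1T1 stood between 92.0 and 148 CPM (counts scaled to library size) in the SKNO-1 libraries and at 0.034 CPM or less in U-937. The stranded kit marks strand, but whether it was used in counting is not given in the sources used here, and CTSA, CTSZ, GLA, GM2A, LIPA, NPC1, NPC2, ACP2 and ACP5 overlap a gene on the other strand with at least 10% of their counts.

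The 2 lines started from different sets of lysosomal transcripts. Compared per transcript length, as TPM, a share of transcripts (mean of 2 libraries), CTSC (355), CD63 (247) and PSAP (229) led among the members in SKNO-1 with DMSO. In U-937 with DMSO the leading members were ASAH1 (291), CD63 (231) and CTSD (229.5). These genes encode cathepsin C, a dipeptidyl peptidase that activates granule proteases, the tetraspanin CD63, prosaposin, the precursor of the saposins, acid ceramidase, and cathepsin D, an aspartic protease. In one edgeR quasi-likelihood fit over all 16 libraries, 22 of 45 members were higher and 13 lower in U-937 than in SKNO-1 at an adjusted p under 0.05. Over all 19872 genes 64.8% were called, 31.7% higher and 33.1% lower, so a call by itself is common in this comparison. The median log2 difference was 0.32 over the members and -0.01 over all genes.

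**Figure D1:**
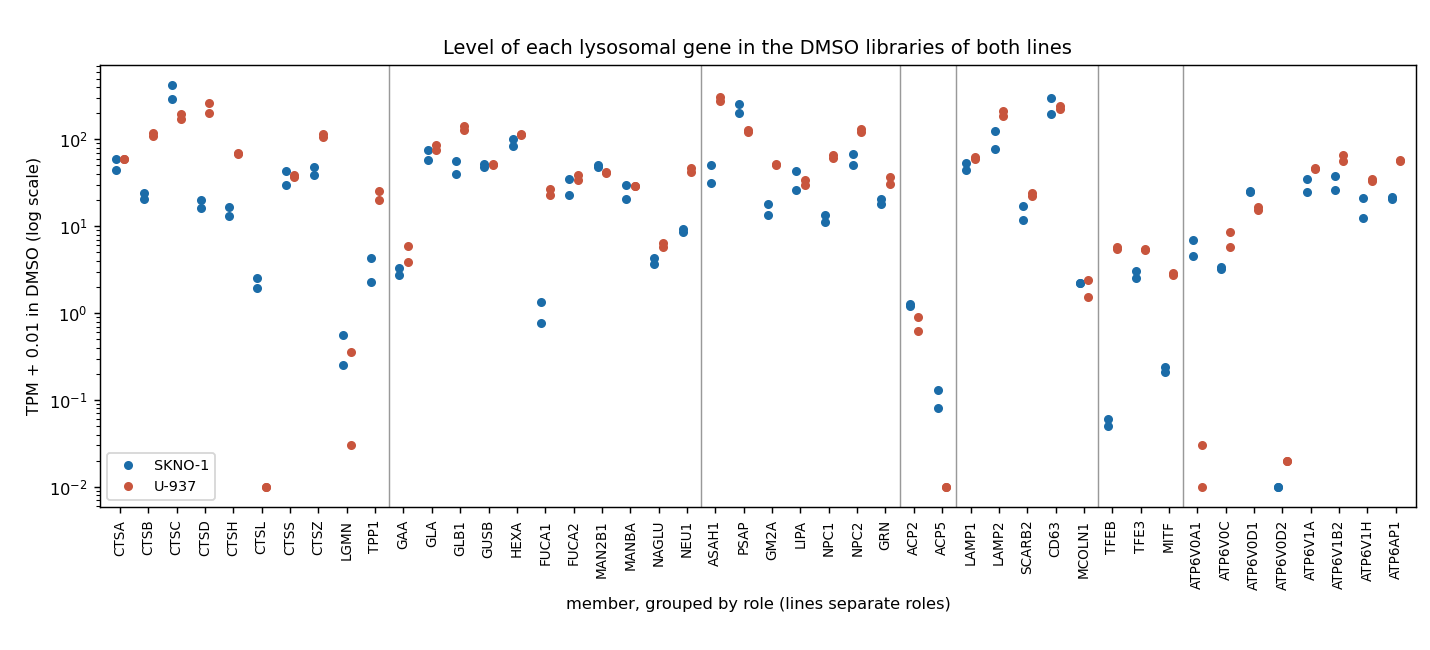
TPM plus 0.01 on a log axis for each of the 46 members in the 2 DMSO libraries of SKNO-1 (blue) and U-937 (red), grouped by role. The transcription factors TFEB and MITF and the fucosidase FUCA1 sit higher in U-937, while CTSL and ATP6V0A1 are at or near 0 in U-937.

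TFEB was much higher in U-937, at 0.12 and 0.0846 CPM in SKNO-1 and 10.5 and 8.32 CPM in U-937, a log2 difference of 6.49 ± 0.27 (adjusted p 8.6e-14). FUCA1, a lysosomal fucosidase, stood at 2.19 and 2.71 CPM against 44.8 and 50.3 CPM (log2 difference 4.27 ± 0.13). MITF stood at 0.6 and 0.451 CPM against 8.01 and 8.22 CPM (log2 difference 3.94 ± 0.22). In each of these 3 genes the U-937 libraries lay far above the SKNO-1 libraries, with no overlap. CTSL, encoding the endopeptidase cathepsin L, had a sum of 233 counts in the SKNO-1 DMSO pair and 0 in U-937. This made it at least 71.8-fold higher in SKNO-1, with 3 counts per group taken as the floor. The pump subunit ATP6V0A1 had 882 counts against 2, a ratio of 408 with a 95% interval from 113 to 3371 that covers counting error only. PSAP and CTSC were lower in U-937 (log2 difference -1.26 ± 0.10 and -1.19 ± 0.09).

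In U-937, ATRA plus Corin raised nearly the whole set. Of 42 members tested, 39 rose and 1, CTSC, fell, where 65.3% of all genes were called, 33.1% higher and 32.2% lower. ATRA alone raised 31 and lowered 1, NPC1, against a background of 41.8% (21.7% higher, 20.1% lower). Corin alone raised 17 and lowered 0 by edgeR, where 12.9% of all genes were called (8.55% higher, 4.4% lower). With Corin, 26 of the 42 had an unadjusted p under 0.05, 25 of them higher, and DESeq2 also called 0 lower. The median log2 fold change over the members tested was 0.70 with ATRA, 0.30 with Corin and 1.03 with both agents, against 0.02, 0.00 and 0.03 over all genes. The members' summed level stood at 5011 and 5117 CPM with DMSO, 10763 and 11272 with ATRA, 6786 and 6179.7 with Corin and 14953 and 15467 with both. The sum was thus lowest in the DMSO libraries and highest with both agents, without overlap between any of the 4 groups. In bulk RNA, fewer cells of a type and less RNA per cell cannot be told apart.

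In SKNO-1 fewer members were called with ATRA than with Corin or with both agents. With ATRA, 6 of 45 members rose and 2 fell, where 6.75% of all genes were called (2.96% higher, 3.79% lower), and the median was 0.02 against 0.01 over all genes. This count rested on single libraries: it was 21 (13 higher, 8 lower) without DMSO library 1, 24 (8 higher, 16 lower) without DMSO library 2, 3 or 2 without ATRA library 1 or 2, and 5 without any of the other 4 libraries. With Corin, 19 rose and 5 fell (median 0.29 against 0.00), where 37.9% of all genes were called (20.5% higher, 17.3% lower). With both agents 24 rose and 5 fell (median 0.39 against 0.05), where 46.7% were called (24.7% higher, 22.0% lower). Without DMSO library 1, 24 rose and 5 fell with Corin, and 29 rose and 6 fell with both agents. Without DMSO library 2, 19 rose and 13 fell with Corin, and 23 rose and 11 fell with both, and without Corin library 2 the falls with Corin numbered 3. The members' summed level was 3708 and 3460.0 CPM with DMSO, 3764 and 3875 with ATRA, 4329 and 4109 with Corin and 4542 and 4561 with both, a much narrower range than in U-937. Summed as TPM, the members stood at 1611 and 2161 with DMSO, 2271 and 2138 with Corin and 1721 and 1925.5 with both. The TPM sums with both agents thus lay within the span of the DMSO pair, as did those with ATRA (1975 and 1922). In U-937 the group means of the TPM sums kept the order of the CPM sums.

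**Figure D2:**
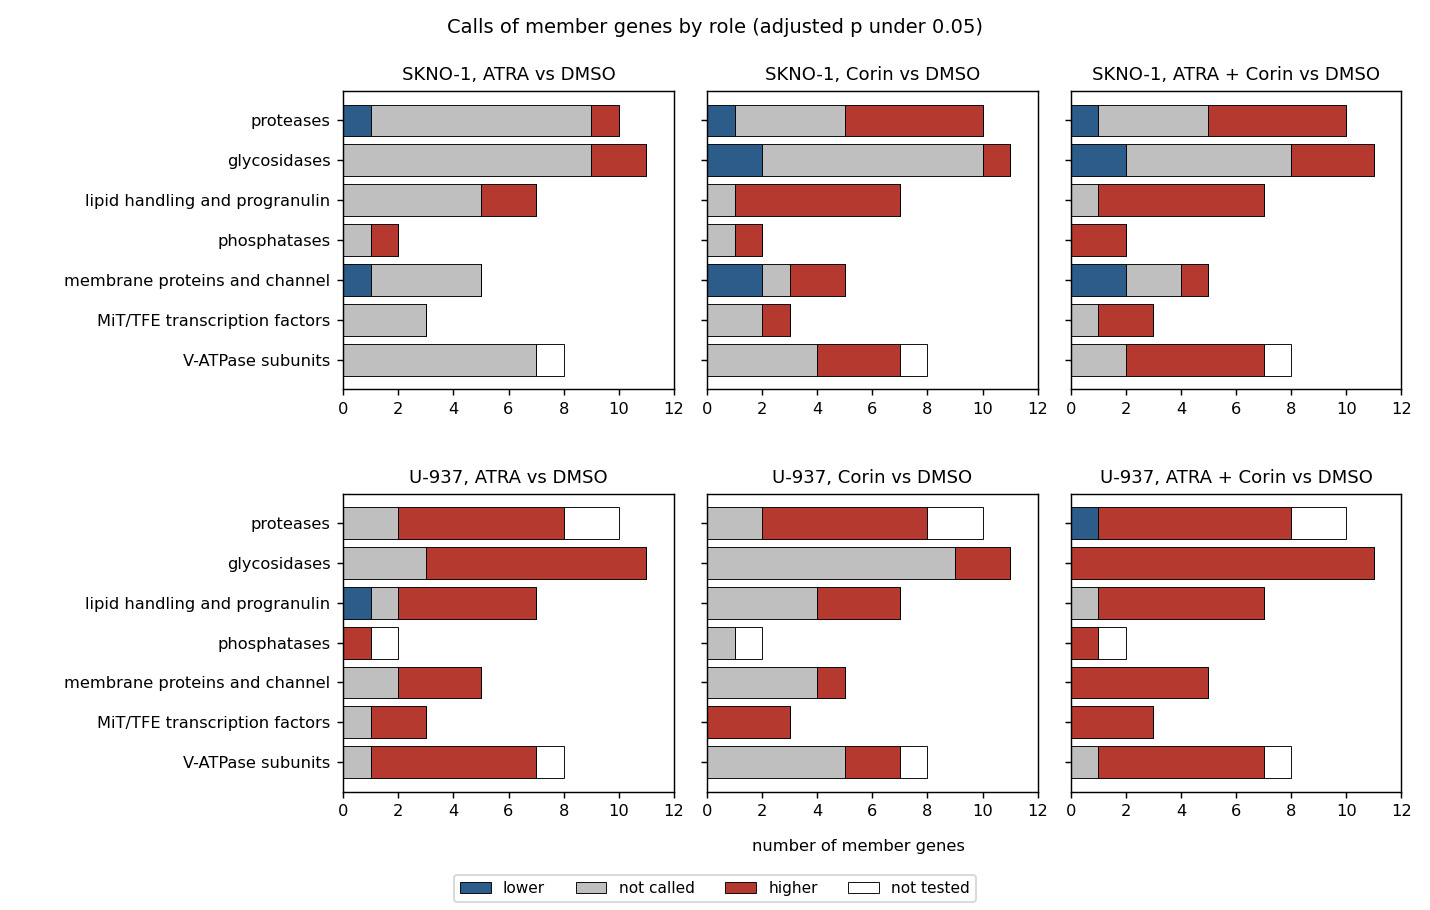
Number of members in each role called higher (red), lower (blue), not called (grey) or not tested (white) against DMSO, for SKNO-1 (top) and U-937 (bottom) and each treatment, at an edgeR adjusted p under 0.05. With both agents all 11 glycosidases are called higher in U-937, against 3 in SKNO-1, where 33.1% and 24.7% of all genes are called higher in U-937 and SKNO-1.

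Markers of monocytes and macrophages rose in both lines. In SKNO-1 they did so while the members' TPM sums with both agents lay within the span of the DMSO pair. Of 8 such markers (CD14, ITGAM, ITGAX, CSF1R, MRC1, CD163, MSR1 and VSIG4), 5 were tested in U-937. Of these 4 rose with ATRA, 4 with Corin and 5 with both agents, where 21.7%, 8.55% and 33.1% of all genes rose. In SKNO-1 7 were tested, and 3, 7 and 6 rose, where 2.96%, 20.5% and 24.7% of all genes did. The summed level of the 8 markers in U-937 was 4.89 and 4.4 TPM with DMSO, 46.9 and 39.5 with ATRA, 34 and 32.2 with Corin and 151 and 135 with both. In SKNO-1 it was 1.35 and 2.31, 3.69 and 3.53, 25.4 and 24.8 and 53 and 57.9 TPM in the same order. CD14 was at 0.47 TPM or less in every library and MSR1 at or near 0, and most of the sums came from ITGAM, ITGAX and VSIG4. A granulocyte list (CEBPE, LTF, LCN2, CAMP and MMP8) summed to 3.54 and 3.97 CPM with DMSO and 38.8 and 40.8 with both agents in U-937, and to 16.6 and 8.58 and 14.2 and 14 CPM in SKNO-1. Summed markers of T cells reached at most 3.23 CPM, of B cells 5.14, and of erythroid cells and of fibroblasts and epithelium less than 1 CPM. The part of these markers in the lysosomal results was not tested.

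Among the proteases tested in U-937, cathepsin D rose most with ATRA and with both agents. CTSD (chr11:1752752-1764573, minus strand, hg38) stood at 367 and 274 CPM with DMSO, 2632 and 3009 with ATRA, 552 and 498 with Corin and 3136 and 2706 with both agents. The ATRA and combination libraries lay about an order of magnitude above DMSO and overlapped each other, and Corin lay between. The log2 fold change was 3.14 ± 0.15 with ATRA (adjusted p 5.6e-14), 0.71 ± 0.14 with Corin (adjusted p 0.00088), and 3.19 ± 0.15 with both (adjusted p 8.4e-15). The Corin call in U-937 was lost without DMSO library 2 (adjusted p 0.0704). In SKNO-1, CTSD was low, at 38.8 and 20.5 CPM with DMSO and 30.8 and 31.4 with both agents, and none of the treatments was called (log2 -0.19 ± 0.25 with ATRA, -0.45 ± 0.26 with Corin and 0.07 ± 0.25 with both), with the treated values inside the span of the DMSO pair in all but 1 library.

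Cathepsin S, a protease of antigen presentation that stays active near neutral pH, rose with each treatment in U-937. CTSS was at 54.3 and 61.7 CPM with DMSO, 179.6 and 177 with ATRA, 105 and 95.9 with Corin and 291 and 355 with both (log2 1.62 ± 0.11, 0.79 ± 0.11 and 2.48 ± 0.11). The 4 groups did not overlap. In SKNO-1 it was at 62.6 and 69, 61.1 and 56.5, 98.6 and 92.5 and 91.6 and 88.4 CPM, and rose with Corin (log2 0.54 ± 0.08) and with both agents (0.45 ± 0.08) but was not called with ATRA.

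Cathepsin H, an aminopeptidase, moved in opposite directions with the agents in SKNO-1. CTSH was at 20.9 and 17 CPM with DMSO, 11.7 and 11.9 with ATRA, 65.9 and 62.4 with Corin and 59.4 and 59.9 with both. It fell with ATRA (log2 -0.68 ± 0.11, adjusted p 0.0067, adjusted p 0.0556 without ATRA library 1 and 0.0514 without ATRA library 2). It rose with Corin (log2 1.76 ± 0.10, adjusted p 2e-05) and with both (1.65 ± 0.10). With both agents it lay 2.34 ± 0.11 log2 units above ATRA alone. In U-937 CTSH was not called with ATRA (log2 -0.00 ± 0.11) and rose with Corin (0.64 ± 0.11) and with both (0.98 ± 0.11).

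Cathepsins B and Z, cysteine proteases with carboxypeptidase activity, rose in both lines. With both agents CTSB rose by log2 0.96 ± 0.10 in SKNO-1 and 1.49 ± 0.11 in U-937, and CTSZ by 0.90 ± 0.08 and 1.81 ± 0.10. Cathepsin L stood at 3.38 and 3.05 CPM in SKNO-1 with DMSO and 8.85 and 9 with both agents (log2 1.47 ± 0.13). In U-937 it had 0 counts in the DMSO, ATRA and Corin libraries and 7 counts over the libraries with both agents, at least 2.28-fold higher against the floor of 3 counts. CTSC went the other way. It was at 560.4 and 603 CPM with DMSO, 478 and 460.3 with Corin and 432 and 418 with both agents in SKNO-1, and at 266 and 292 and 214 and 241 CPM with DMSO and both agents in U-937. It fell with both agents in each line (log2 -0.45 ± 0.06 in SKNO-1 and -0.30 ± 0.10 in U-937, adjusted p 0.014). The U-937 call was lost without combination library 1 (adjusted p 0.142), without DMSO library 2 (0.132) and with the GC trend removed (0.0947).

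TPP1 and CTSA responded to both agents more in U-937 than in SKNO-1 (difference in log2 response 0.81 ± 0.20 and 1.50 ± 0.13). TPP1, a tripeptidyl peptidase, was at 65.5 and 50.7 CPM with DMSO and 158 and 137 with ATRA in U-937 (log2 1.34 ± 0.13), and was lower with both agents than with ATRA alone (-0.40 ± 0.12, adjusted p 0.106 without ATRA library 1). In SKNO-1 it stayed between 7.26 and 10.1 CPM and was not called. CTSA, a serine carboxypeptidase that protects other lysosomal enzymes, rose with both agents in U-937 (log2 1.28 ± 0.10) and was not called in SKNO-1 (-0.17 ± 0.08). LGMN, an asparaginyl endopeptidase, was at 0.405 CPM or less in every library. By count, 7 of the 8 proteases tested rose with both agents in U-937 and 1 fell, and 5 of 10 rose and 1 fell in SKNO-1. Over all genes 33.1% rose and 32.2% fell in U-937, and 24.7% rose and 22.0% fell in SKNO-1.

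**Figure D3:**
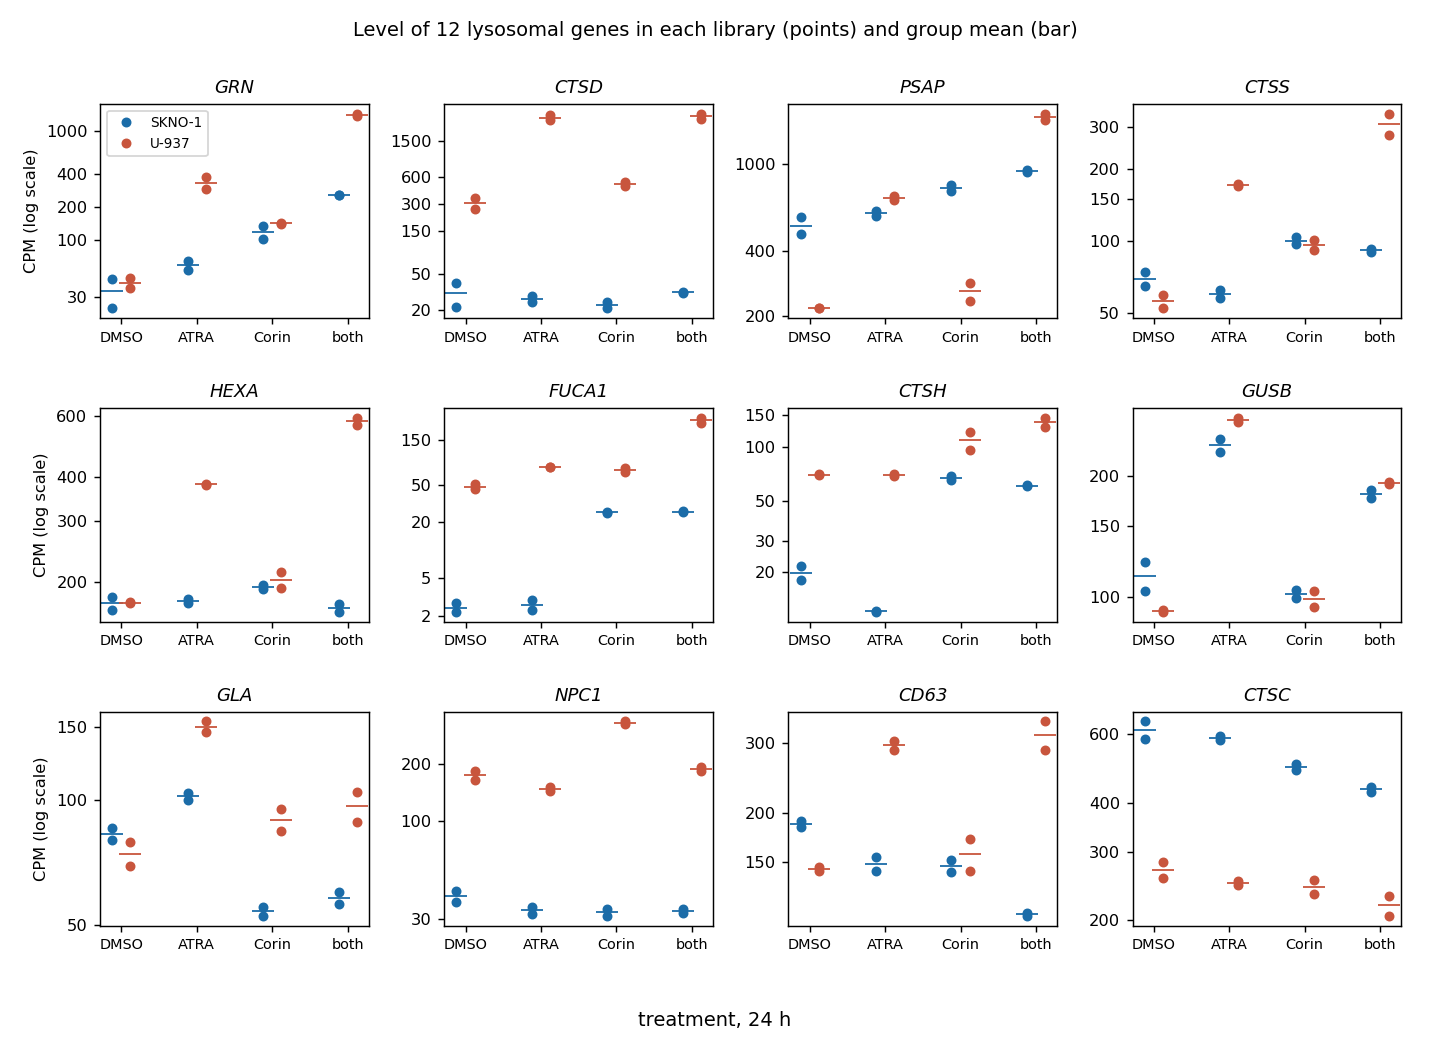
CPM on a log axis for 12 members in each library (points) with the group mean (bar), on a scale shared by all 16 libraries, for SKNO-1 (blue) and U-937 (red) by treatment at 24 h. GRN, CTSD, PSAP and HEXA rise with ATRA in U-937, FUCA1 and CTSH jump with Corin in SKNO-1, and NPC1 peaks with Corin alone in U-937.

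The glycosidases, which trim sugars from glycoproteins and glycolipids, rose broadly in U-937: 8 of 11 rose with ATRA, 2 with Corin and 11 with both agents. Over all genes in U-937, 21.7% were called higher with ATRA, 8.55% with Corin and 33.1% with both. In SKNO-1 with both agents 3 rose and 2 fell, near the shares of all genes (24.7% higher, 22.0% lower), and the median was 0.01. FUCA1 (chr1:23845077-23868290, minus strand) answered to Corin in SKNO-1, at 2.11 and 2.53 CPM with DMSO, 2.25 and 2.84 with ATRA, 24.4 and 23.7 with Corin and 25.1 and 25.4 with both. The DMSO and ATRA libraries overlapped and lay about an order of magnitude below the others. The log2 fold change was 3.37 ± 0.14 with Corin (adjusted p 4.9e-06) and 3.44 ± 0.14 with both (adjusted p 2.4e-06). In U-937 FUCA1 was at 46.4 and 52.1, 80.1 and 79, 78.6 and 70.1 and 236 and 269 CPM. It rose with each agent (0.69 ± 0.10 with ATRA, 0.60 ± 0.10 with Corin) and by 2.36 ± 0.11 with both.

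β-Glucuronidase answered to ATRA in both lines. GUSB was at 118 and 96.9 CPM with DMSO, 224 and 240.3 with ATRA, 99 and 94.3 with Corin and 174 and 181 with both in SKNO-1. In U-937 it was at 96.4 and 95, 282 and 289, 107 and 97.9 and 199 and 201 CPM. In each line ATRA alone gave the highest values, the combination the next, and the Corin libraries overlapped or adjoined DMSO. The ATRA change was log2 1.11 ± 0.09 in SKNO-1, at an adjusted p of 0.00033, while that in U-937 was 1.58 ± 0.10 (adjusted p 3.5e-12). GUSB was the only member whose SKNO-1 ATRA call remained under all 15 alternatives. With both agents GUSB lay below ATRA alone (log2 -0.39 ± 0.09 in SKNO-1 and -0.51 ± 0.09 in U-937). The SKNO-1 call was lost without ATRA library 2 (adjusted p 0.0996) and without combination library 1 (0.0725). GUSB has 11 pseudogenes in the table whose counts come to 43.9% of its own, so its level depends on how shared reads were divided.

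α-Galactosidase A, whose lack causes Fabry disease, went in opposite directions in the lines. GLA was at 82.5 and 75 CPM with DMSO, 97.6 and 101 with ATRA, 52.5 and 50.0 with Corin and 59.2 and 55.1 with both in SKNO-1. In U-937 it was at 72 and 81.9, 151 and 159.8, 98.7 and 87.5 and 92.1 and 109 CPM. ATRA gave the highest values in both lines, and Corin the lowest in SKNO-1, without overlap with DMSO. With both agents GLA fell in SKNO-1 (log2 -0.46 ± 0.07) and rose in U-937 (0.38 ± 0.11). The U-937 call was lost without combination library 2 (adjusted p 0.0738) and without DMSO library 1 (0.0732). GLA overlaps RPL36A on the other strand, which had 333643 counts over all libraries against 48100 for GLA. The level of GLA may thus depend on the use of strand in counting, which is not given.

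Hexosaminidase A, the GM2-degrading enzyme lost in Tay-Sachs disease, responded in U-937. HEXA was at 182 and 180.1 CPM with DMSO, 395 and 397 with ATRA, 222 and 199 with Corin and 589.8 and 618 with both (log2 1.13 ± 0.10 with ATRA and 1.74 ± 0.10 with both). In SKNO-1 it stayed between 156 and 186 CPM and was not called, and the response to both agents differed between the lines by log2 1.78 ± 0.12. FUCA2, a secreted relative of FUCA1, fell in SKNO-1 from 65.4 and 69.4 CPM to 42.8 and 45.3 with Corin and 43.3 and 46.6 with both (log2 -0.61 ± 0.07 and -0.59 ± 0.07), and rose in U-937 with both (log2 0.68 ± 0.10). GAA, the acid glucosidase of glycogen breakdown, rose with both agents in each line (1.22 ± 0.23 in SKNO-1, 0.85 ± 0.20 in U-937). The other glycosidases, GLB1, MAN2B1, MANBA, NAGLU and NEU1, rose with both agents in U-937 by log2 0.43 to 0.80, and none of them was called in SKNO-1.

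Progranulin rose more than any other member tested in U-937 with both agents. GRN (chr17:44345246-44353106, plus strand) encodes a secreted glycoprotein that is cleaved into granulins in the lysosome. In U-937 it was at 46.2 and 37.2 CPM with DMSO, 303 and 388 with ATRA, 146 and 150.4 with Corin and 1446 and 1503 with both. The 4 groups did not overlap and were spread over more than an order of magnitude. The log2 fold change was 3.05 ± 0.13 with ATRA (adjusted p 1.2e-14), 1.83 ± 0.13 with Corin (adjusted p 3.3e-10) and 5.14 ± 0.15 with both (adjusted p 1e-18). In SKNO-1 GRN was at 42.2 and 22.1 CPM with DMSO, 51.9 and 62.4 with ATRA, 127 and 96.9 with Corin and 258 and 255 with both. It was not called with ATRA (log2 0.83 ± 0.27, adjusted p 0.14), although both ATRA libraries lay above both DMSO libraries, which differed widely from each other. It rose with Corin (1.80 ± 0.27, adjusted p 0.0017) and with both (3.0 ± 0.28, adjusted p 0.00013).

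Prosaposin followed the same order of groups. PSAP (chr10:71816298-71851251, minus strand) was at 227 and 226 CPM with DMSO, 707 and 738 with ATRA, 297 and 245 with Corin and 1665 and 1777 with both in U-937 (log2 1.67 ± 0.12 with ATRA, 2.93 ± 0.12 with both). In SKNO-1 it was at 550.1 and 445, 567 and 594, 761 and 719 and 913 and 927 CPM, and rose with Corin (log2 0.57 ± 0.09) and with both (0.89 ± 0.09). By these values PSAP was lower in U-937 than in SKNO-1 with DMSO and higher there with both agents, and its response to both agents differed by log2 2.08 ± 0.15. GM2A, the activator protein of ganglioside breakdown, and ASAH1, acid ceramidase, rose with ATRA in both lines: GM2A by log2 0.43 ± 0.07 in SKNO-1 and 1.21 ± 0.10 in U-937, and ASAH1 by 0.63 ± 0.08 and 0.67 ± 0.11. Without ATRA library 2 the SKNO-1 calls of ASAH1 (adjusted p 0.0525) and GM2A (0.119) were lost, and that of GM2A also without ATRA library 1 (0.0872). With both agents GM2A rose by 1.07 ± 0.07 in SKNO-1 and 1.55 ± 0.11 in U-937.

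The cholesterol transporters NPC1 and NPC2, which together export cholesterol from the lysosome, did not move alike. NPC1 was at 172 and 190.0 CPM with DMSO, 156 and 149 with ATRA, 341 and 352 with Corin and 192 and 201 with both in U-937. Only the Corin libraries stood clearly above the others, by log2 0.94 ± 0.10 (adjusted p 1.7e-07), and with both agents NPC1 lay below Corin alone (log2 -0.82 ± 0.10). Its fall with ATRA was small (log2 -0.24 ± 0.10, adjusted p 0.048) and was lost without any 1 of the DMSO and ATRA libraries of U-937 (adjusted p 0.0527, 0.329, 0.149 and 0.266 without DMSO library 1, DMSO library 2, ATRA library 1 and ATRA library 2). In SKNO-1 NPC1 stayed between 29.6 and 40.9 CPM and was not called. NPC2 rose with ATRA in U-937 (log2 1.21 ± 0.11) and with Corin in SKNO-1 (0.58 ± 0.08). LIPA, the acid lipase, rose with both agents in each line (0.33 ± 0.08 in SKNO-1, adjusted p 0.0599 without combination library 2, and 0.86 ± 0.11 in U-937). In this role 6 of 7 members rose with both agents in each line, all except NPC1. Over all genes 33.1% rose in U-937 and 24.7% in SKNO-1.

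The acid phosphatases were low in both lines. ACP5, the tartrate-resistant phosphatase known from osteoclasts and macrophages, was at 0.116 and 0.105 CPM with DMSO, 0.6 and 0.513 with ATRA, 2.14 and 2.14 with Corin and 6.83 and 7.92 with both in SKNO-1. It rose in each comparison, by log2 2.29 ± 0.33, 4.23 ± 0.27 and 6.02 ± 0.25, from 8 counts over the DMSO libraries. In U-937 it had at most 2 counts in any group, and with both agents the SKNO-1 to U-937 ratio was 492 (95% interval 87.9 to 19465, counting error only). ACP2 was at 1.32 and 1.87 CPM with DMSO and 8.91 and 7.73 with both in U-937 (log2 2.39 ± 0.22) and rose by 1.25 ± 0.20 with both in SKNO-1. Both genes overlap a gene on the other strand with more counts over all libraries. These are ZNF627 for ACP5 (15022 against 681) and NR1H3 for ACP2 (5900 against 2363).

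**Figure D4:**
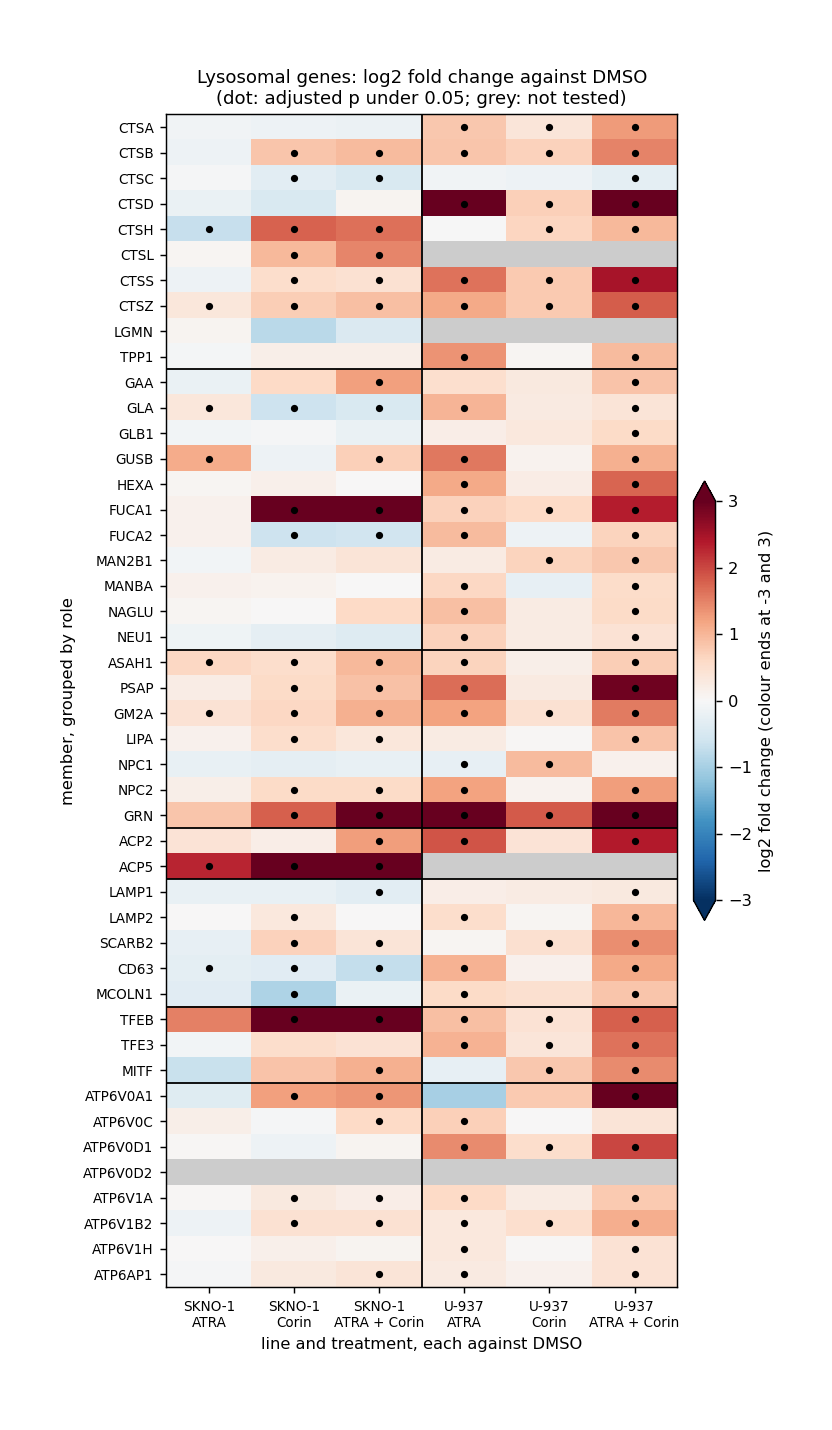
Log2 fold change against DMSO (colour, ending at -3 and 3) for each member (rows, grouped by role) in each line and treatment (columns), with a dot where the edgeR adjusted p is under 0.05 and grey where the gene was not tested. The U-937 columns for ATRA and for both agents are mostly red with dots, the SKNO-1 ATRA column is pale, and the ATP6V0A1 row in U-937 rests on 1 to 22 counts per group.

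Among the membrane proteins, CD63 moved in opposite directions in the lines. CD63, a tetraspanin of late endosomes and secretory granules, was at 184 and 172 CPM with DMSO, 139 and 151 with ATRA, 144 and 135 with Corin and 110.4 and 108 with both in SKNO-1. In U-937 it was at 148 and 151, 298 and 314, 178 and 149 and 301 and 354 CPM. The treated SKNO-1 libraries all lay below DMSO, and the U-937 libraries with ATRA, alone or with Corin, all lay above it. With both agents CD63 fell in SKNO-1 (log2 -0.70 ± 0.07, adjusted p 0.00014) and rose in U-937 (log2 1.13 ± 0.11, adjusted p 2.8e-09). The SKNO-1 call with ATRA alone (-0.29 ± 0.07) was lost under 8 of 15 alternatives, with adjusted p from 0.067 to 0.236, among them leaving out any 1 of the ATRA, Corin or combination libraries.

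The 2 major glycoproteins of the lysosomal membrane differed. LAMP2, whose isoform takes part in chaperone-mediated autophagy, was at 492 and 564 CPM with DMSO and 996 and 1113 with both in U-937 (log2 1.00 ± 0.11), and was not called with both in SKNO-1 (0.01 ± 0.09). LAMP1 rose in U-937 (log2 0.30 ± 0.10, adjusted p 0.0542 without combination library 1 and 0.122 without DMSO library 2). It fell in SKNO-1 (log2 -0.32 ± 0.10, adjusted p 0.135 and 0.0801 without combination library 1 and 2). SCARB2, the receptor that carries glucocerebrosidase to the lysosome, was at 85.5 and 91.5 CPM with DMSO, 95.9 and 89 with ATRA, 125 and 120.3 with Corin and 225 and 241 with both in U-937. The DMSO and ATRA libraries overlapped, and the combination lay above all others (log2 1.39 ± 0.10). MCOLN1, a calcium channel of the lysosomal membrane, was low and fell with Corin in SKNO-1 (log2 -0.93 ± 0.21, adjusted p 0.0659 and 0.0634 without Corin library 1 and 2). It rose with both in U-937 (0.83 ± 0.23, adjusted p 0.0588 without combination library 1). With both agents 5 of 5 membrane proteins rose in U-937, where 33.1% of all genes did. In SKNO-1 1 rose and 2 fell, where 24.7% of all genes rose and 22.0% fell. The riser there was SCARB2 (log2 0.38 ± 0.09, adjusted p 0.0594 without combination library 1).

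The 3 MiT/TFE factors rose with both agents in U-937, and TFEB and MITF did so in SKNO-1. TFEB, the best known regulator of lysosome formation, was at 10.9 and 8.62 CPM with DMSO, 16.8 and 19.7 with ATRA, 13 and 13.4 with Corin and 35.1 and 32.8 with both in U-937. It rose by log2 0.90 ± 0.13 with ATRA and 1.79 ± 0.13 with both, and its small rise with Corin (0.43 ± 0.14, adjusted p 0.037) was lost under 8 of 15 alternatives (adjusted p from 0.0582 to 0.39), among them leaving out Corin library 1, Corin library 2 or DMSO library 2 and the use of DESeq2. In SKNO-1 TFEB was near the lower limit of detection, at 0.116 and 0.079 CPM with DMSO, 0.27 and 0.297 with ATRA, 0.912 and 1.06 with Corin and 1.62 and 1.95 with both. It rose with Corin (log2 3.30 ± 0.37) and with both (4.16 ± 0.35), though even then it stayed below its DMSO level in U-937.

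TFE3 and MITF followed in U-937. TFE3 was at 15.7 and 15.1 CPM with DMSO and 51.9 and 43.2 with both (log2 1.63 ± 0.12), after 33.1 and 30.4 with ATRA. Its small rise with Corin (log2 0.36 ± 0.12, edgeR adjusted p 0.0486) was lost by DESeq2 (adjusted p 0.08). That call was also lost with library totals (0.0777) and with the GC trend removed (0.115). MITF was at 8.3 and 8.52 CPM with DMSO, 7.14 and 7.07 with ATRA, 13.7 and 15.6 with Corin and 22.4 and 22.5 with both, so it was not called with ATRA (log2 -0.24 ± 0.14) but rose with Corin (0.80 ± 0.13) and with both (1.42 ± 0.13). In SKNO-1 TFE3 was not called with any treatment, at log2 0.43 ± 0.20 with both. MITF was at 1.14 CPM or less there and rose with both agents by 1.08 ± 0.32 (adjusted p 0.026), a call lost by DESeq2 (adjusted p 0.137), without DMSO library 2 (0.104) and without combination library 1 (0.0663) or 2 (0.134). All measurements are of RNA, and the location of these factors in the cell was not measured.

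Among the V-ATPase subunits, ATP6V0D1, a V0 subunit, changed most in U-937 apart from ATP6V0A1, which had few counts. It was at 24.1 and 23.1 CPM with DMSO, 62.7 and 62.7 with ATRA, 36.4 and 31.1 with Corin and 94.3 and 94.4 with both (log2 1.41 ± 0.11, 0.52 ± 0.11 and 2.00 ± 0.11). In SKNO-1 it was not called (0.09 ± 0.16 with both). ATP6V0A1, the membrane subunit of most tissues, was at 10.7 and 13.5 CPM with DMSO, 28.4 and 28.7 with Corin and 30.4 and 30.4 with both in SKNO-1, without overlap (log2 1.24 ± 0.13 with Corin, 1.33 ± 0.13 with both). In U-937 it had 2 counts with DMSO and 22 with both agents, a ratio of 10.7 (95% interval 2.64 to 94.2), and its call as higher was lost without DMSO library 2 (adjusted p 0.0852) and by DESeq2 (0.0704).

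The V1 subunits moved less. ATP6V1B2, a subunit of the ATP-hydrolysing ring, rose with both agents by log2 0.47 ± 0.06 in SKNO-1 and 1.09 ± 0.10 in U-937, and ATP6V1A, its partner in the ring, by 0.21 ± 0.07 and 0.79 ± 0.10. The SKNO-1 call of ATP6V1A was lost under 11 of 15 alternatives (adjusted p from 0.0521 to 0.159). That of the proteolipid subunit ATP6V0C (0.60 ± 0.20) was lost under 12 (from 0.0633 to 0.207) and that of the accessory subunit ATP6AP1 (0.38 ± 0.12) under 7 (from 0.0673 to 0.15), in each case among them leaving out any 1 of the ATRA, Corin or combination libraries. ATP6V1H rose with both in U-937 (0.43 ± 0.10) and was not called in SKNO-1. ATP6V0D2, a subunit of osteoclasts and macrophages, had 0 counts in every SKNO-1 library. In U-937 it had 2 counts with DMSO, 25 with Corin, a ratio of 11.3 (95% interval 2.81 to 98.0), and 7 with both, a ratio of 3.42 (0.651 to 33.7). With both agents 6 of 7 subunits tested rose in U-937 and 5 of 7 in SKNO-1, against 33.1% and 24.7% of all genes.

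The 2 agents were then compared with each one alone. In U-937 the combination was higher than ATRA alone for 23 of 42 members and lower for 6, where 47.4% of all genes were called (22.5% higher, 24.9% lower). Against Corin alone it was higher for 34 and lower for 1, where 60.5% were called (29.9% higher, 30.6% lower). The 6 members below ATRA alone were TPP1, GLA, GUSB, FUCA2, NAGLU and NEU1, 5 of them glycosidases, and the number was 2 without ATRA library 1 and 3 without ATRA library 2. In SKNO-1 the combination was higher than ATRA alone for 20 of 45 members and lower for 5, where 44.8% were called (23.0% higher, 21.8% lower). After removal of the GC trend, 61.5% of the calls over all genes in that comparison were higher, against 51.3%, and 25 members were higher and 5 lower. Against Corin alone 7 were higher (GRN, GUSB, CTSL, ASAH1, GM2A, ACP2 and ACP5) and 1 lower (CD63), where 10.4% were called (4.82% higher, 5.6% lower). That count was 2 without any of the Corin or combination libraries and 26 (19 higher, 7 lower) without either DMSO library. With the GC trend removed it was 17 (10 higher, 7 lower).

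A departure from additivity on the log2 scale, where the response to the combination is set against ATRA and Corin responses added up, was called in U-937 for 11 of 42 members, 5 above and 6 below, where 23.4% of all genes were called (8.11% above, 15.3% below), so the members' share lay near that of all genes. FUCA1 (log2 1.07 ± 0.14), PSAP (0.99 ± 0.16), MITF (0.86 ± 0.19), SCARB2 (0.86 ± 0.14) and LIPA (0.57 ± 0.15) exceeded the sum. GLA (-0.90 ± 0.15), CTSD (-0.66 ± 0.19), GUSB (-0.61 ± 0.13), NPC1 (-0.57 ± 0.14), NAGLU (-0.57 ± 0.19) and NEU1 (-0.50 ± 0.14) fell short of it. FUCA1, PSAP, MITF, SCARB2, GLA, GUSB and NPC1 kept this call under all 14 alternatives. CTSD lost it under 3, among them without ATRA library 2 (adjusted p 0.0992) and without DMSO library 2 (0.143). LIPA lost it without Corin library 2 (0.0579) and DMSO library 2 (0.053). NAGLU lost it under 7 (from 0.0613 to 0.216) and NEU1 under 4 (from 0.058 to 0.103). The split was not stable, and the cause was not tested. With the GC trend removed 12 members were above and 5 below, and over all genes 47.5% of the calls were above, against 34.6%. By DESeq2 the split was 7 above and 5 below, and with library totals 7 above and 6 below. Without combination library 1 or Corin library 1 it was 8 above and 5 below. GRN did not depart measurably from additivity (log2 0.26 ± 0.18, adjusted p 0.32).

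In SKNO-1 edgeR called 0 of 45 members for a departure from additivity, where 0.463% of all genes were called. An unadjusted p under 0.05 was found for 8 members, 5 of them above additivity, against 14.2% of all genes, and DESeq2 called 1 member, CTSH. The number was 5 without DMSO library 1 and 20 without DMSO library 2. FUCA1 was at log2 -0.07 ± 0.20 and PSAP at 0.09 ± 0.13 there.

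The response of the 2 lines was compared directly, as the log2 change in U-937 minus that in SKNO-1 in the fit over all 16 libraries. A positive difference means a larger rise or a smaller fall in U-937. With ATRA it was positive for 28 of 45 members and negative for 0 by edgeR, where 19.4% of all genes were called (10.6% higher, 8.8% lower). In this contrast 33 members had an unadjusted p under 0.05, 33 of them higher, and DESeq2 called 27, 0 of them lower. The largest differences were CTSD (log2 3.36 ± 0.34), GRN (2.25 ± 0.36) and CTSS (1.82 ± 0.15). The median difference was 0.71 over the members and 0.04 over all genes. With library totals in place of TMM scaling, 42.2% of the calls over all genes were higher, against 54.6%, while 27 members were higher and 0 lower.

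Of the 28, 21 rose in U-937 and were not called in SKNO-1, 4 rose in both lines (CTSZ, GLA, GUSB and GM2A), CD63 fell in SKNO-1 and rose in U-937, CTSH fell in SKNO-1 and was not called in U-937, and LAMP1 was called in neither.

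With both agents the difference was positive for 31 of 45 members and negative for 3, where 40.6% of all genes were called (17.9% higher, 22.7% lower), with a median of 0.67 against -0.11 over all genes. CTSD (3.15 ± 0.34), GRN (2.18 ± 0.36) and PSAP (2.08 ± 0.15) had the largest positive differences, and TFEB (-2.32 ± 0.41), FUCA1 (-1.03 ± 0.17) and CTSH (-0.63 ± 0.15) rose less in U-937 than in SKNO-1. With Corin alone the difference was positive for 9 and negative for 6, where 12.8% were called (5.28% higher, 7.49% lower), and the median was 0.02. TFEB (-2.87 ± 0.42), FUCA1 (-2.77 ± 0.17) and CTSH (-1.12 ± 0.15) rose more in SKNO-1. NPC1 (1.22 ± 0.13) and CTSD (1.15 ± 0.33) rose in U-937 and were not called in SKNO-1, as were CTSA and ATP6V0D1. GLA (0.89 ± 0.14), FUCA2, CD63 and MCOLN1 had a positive difference and fell in SKNO-1, and none of these 4 was called in U-937. There GLA and MCOLN1 had an unadjusted edgeR p under 0.05, so the difference need not come from SKNO-1 alone. That total of 15 was 8 without either SKNO-1 Corin library or U-937 DMSO library 2 and 9 without U-937 Corin library 1, and the CTSD call was lost under 15 of 22 alternatives.

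**Figure D5:**
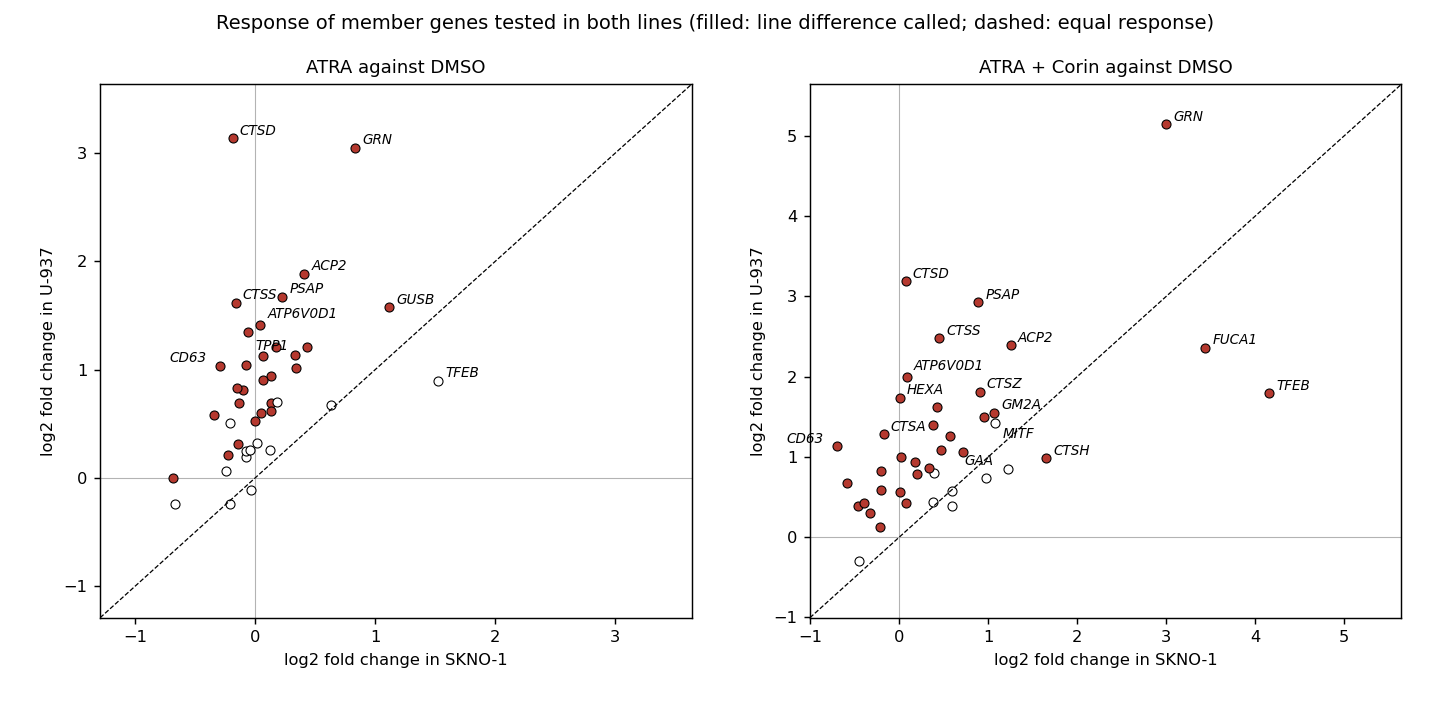
Log2 fold change of each member tested in both lines, SKNO-1 on the x axis and U-937 on the y axis, for ATRA (left) and for both agents (right), leaving out genes with 3 counts or fewer in a group, so that ATP6V0A1 is not drawn. Filled points are members whose response differed between the lines (edgeR adjusted p under 0.05), and most of them lie above the dashed line of equal response, with TFEB, FUCA1 and CTSH below it on the right.

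Called separately in each line, 21 of the 42 members tested in both rose in each with both agents, where 13.5% of the 15448 genes tested in both lines did so. CTSC fell in both, as did 14.9% of all genes, and 4 members, GLA, FUCA2, LAMP1 and CD63, fell in SKNO-1 and rose in U-937, as did 3.72%. With ATRA alone, CTSZ, GLA, GUSB, ASAH1 and GM2A rose in both lines, as did 2.2% of all genes, and CD63 fell in SKNO-1 and rose in U-937, as did 0.932%. Of these SKNO-1 calls, those of CTSZ (adjusted p from 0.0554 to 0.404) and GLA (from 0.0518 to 0.311) were lost under 9 and 8 of 15 alternatives, among them leaving out any 1 of the ATRA, Corin or combination libraries.

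The members with an octamer were set beside those without, as a description. Of the 10 with an octamer, 9 were tested in U-937, and 8 of them rose with both agents, with a median log2 change of 0.94, while 20 of 22 tested members with a window but no octamer rose, with a median of 1.16. In SKNO-1 with both agents 4 of 10 rose and 2 fell, and among those without an octamer 14 of 23 rose and 3 fell. With Corin in SKNO-1 the counts were 2 up and 2 down of 10, and 10 up and 3 down of 23. GRN and TPP1 have the variant octamer and rose with ATRA in U-937, as did CTSD and PSAP, of which CTSD has neither octamer and PSAP has no window. Over all genes 33.1% rose in U-937 with both agents, and in SKNO-1 24.7% rose with both agents and 20.5% with Corin. The difference between the sets with and without an octamer was not tested.

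Neighbouring gene lists of the lysosome were examined in the same fits. In U-937 with both agents, where 33.1% of all genes were called higher and 32.2% lower, 13 of 21 further lysosomal hydrolases tested rose and 4 fell, among them CTSO (log2 1.63 ± 0.19), a cysteine cathepsin, and CTSV (-1.02 ± 0.20), a relative of cathepsin L. Of 13 further membrane proteins 8 rose, with CD68, the macrophage marker, at 35.6 and 33.4 CPM with DMSO and 305 and 326 with both (log2 3.19 ± 0.11). Of 13 further V-ATPase subunits 8 rose and 3 fell, among them TCIRG1 (2.60 ± 0.18), the membrane subunit of osteoclasts and immune cells, and ATP6V0A2 (-0.74 ± 0.11). Of 12 genes for sorting of lysosomal enzymes 9 rose and 1 fell, with the sorting receptor SORT1 at 1.66 and 1.83 and 25.5 and 29 CPM (log2 3.96 ± 0.17). The nutrient sensing list, with the kinase MTOR and the Rag GTPases, gave 11 up and 5 down of 20, and MTOR itself was lower (-1.14 ± 0.09). The autophagy list gave 8 up and 2 down of 15, with GABARAPL1, a protein of the autophagosome membrane, at 1.72 and 1.63 and 27.7 and 31.4 CPM (4.14 ± 0.17).

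In SKNO-1 with both agents, 24.7% of all genes were called higher and 22.0% lower. The further hydrolases gave 11 up and 3 down of 23, the membrane proteins 6 up and 2 down of 14, the V-ATPase subunits 4 up and 4 down of 14, and sorting 4 up and 2 down of 12. Nutrient sensing gave 3 up and 4 down of 20 and autophagy 2 up and 4 down of 16. CD68 rose in SKNO-1 too, from 6.65 and 4.77 CPM to 56.4 and 56 (log2 3.30 ± 0.15). Among the cystatins, which inhibit cysteine cathepsins, CST7, an inhibitor found in leukocytes, fell in both lines. It was at 382 and 375 CPM with DMSO and 63.3 and 67.9 with both in U-937 (log2 -2.53 ± 0.11) and at 153 and 116 and 9.82 and 9.63 CPM in SKNO-1 (-3.79 ± 0.15). In all, 3 of 4 cystatins tested rose and 1 fell in U-937, and 3 of 5 rose and 1 fell in SKNO-1. CST3, the secreted cystatin C, rose by log2 1.19 ± 0.19 in SKNO-1 and 1.00 ± 0.11 in U-937.

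With ATRA alone in U-937, where 21.7% of all genes were called higher and 20.1% lower, 10 of 21 further hydrolases rose and 1 fell, 7 of 13 membrane proteins, 7 of 12 sorting genes and 7 of 15 autophagy genes rose, and 12 of 20 nutrient sensing genes rose and 2 fell. In SKNO-1, where 2.96% of all genes were called higher and 3.79% lower with ATRA, 4 of 23 further hydrolases were called, each of them lower, and 1 of 14 membrane proteins rose. The difference between the lines was not tested for these lists.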

How the data were processed

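RNA sequencing libraries were made in 2 replicates of 8 groups, SKNO-1 and U-937 with DMSO, ATRA, Corin or both. Per the submitters' processing notes, reads were handled with Trimmomatic, STAR and RSEM on hg38, and the authors deposited estimated (expected) counts and TPM per gene; versions, annotation release and strand use are not given in the sources used here. The deposited estimated counts, of which 20.4% of positive values were not whole, were rounded. Spike-in RNA was added per the labels, but the table holds 0 spike-in genes, so changes are relative to the total RNA sequenced. The authors' comparison tables were not used.

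For each line, edgeR 4.0.16 (R 4.3.3) fitted 1 mean per group over 8 libraries after filterByExpr and TMM scaling, with robust quasi-likelihood F tests and Benjamini-Hochberg adjustment over all genes at 0.05; the lines were compared in a fit over 16 libraries. CPM follow the TMM scaling of the line, except in comparisons between lines. SEs were derived from each fold change and its F value. Deposited TPM served to compare genes with each other, to sum the monocyte and macrophage markers, and to sum the members beside their CPM. On data simulated from the real means, 100 genes changed by log2 1 were recovered at 58% in SKNO-1 with ATRA (86% at log2 2), among 17479 genes, and at 66% (91%) in U-937, among 17717. In the same simulation 13 unchanged genes were called in SKNO-1 and 17 in U-937. The simulation changed few genes, in 1 group of each line, and held no trend with GC content, so these rates need not hold for the real libraries.

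The members and lists were chosen with earlier results of these data known. The text gives values for every member, and with library values mainly for the 3 largest called rises and falls per comparison above a mean of 5 CPM, the largest of each role, and the transcription factors; from other lists, some of the 2 largest in each direction, of which 1 gene is not reported here. Other members given with library values were added, after their values were seen, to show each role. Promoters are RefSeq windows and gene positions those of a GENCODE annotation of the same build. Replicate numbers were not taken to pair the libraries in the main fits. Correlations of same-numbered deviations ran from -0.50 to 0.42. Some of these deviations followed GC content, so the correlations do not decide whether same-numbered libraries shared a batch. No 2 libraries agreed within sampling noise (chi-square per degree of freedom 4.37 or more). Alternatives were DESeq2 1.42.0, library totals, no low-count filter, a replicate block, removal of the trend with GC content, only the libraries compared, and each library left out. Leaving out a library leaves 1 in its group, which then adds nothing to the estimate of spread.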

Additional observations from a re-analysis of the deposited data

Results flagged for a closer look

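The lines differed in their response to the same agents, by the test of the difference itself (log2 change in U-937 minus that in SKNO-1, edgeR's quasi-likelihood test over 16 libraries, Benjamini-Hochberg adjusted p under 0.05). With ATRA the difference was positive for 28 members, among them CTSH, which fell in SKNO-1 and was not called in U-937, and negative for 0, DESeq2 also calling 0 negative and 0 of the members with an unadjusted p under 0.05 lying lower. CTSD (3.36 ± 0.34), GRN (2.25 ± 0.36) and CTSS (1.82 ± 0.15) differed most. CTSD and GRN also have wide SKNO-1 DMSO pairs, and with each library left out in turn their differences ranged from 2.79 to 3.70 and from 1.67 to 2.59.

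With Corin the difference was positive for 9 members, of which 4 (GLA, FUCA2, CD63 and MCOLN1) fell in SKNO-1 and were not called in U-937, and negative for 6. NPC1 (1.22 ± 0.13), CTSD (1.15 ± 0.33) and GLA (0.89 ± 0.14) had positive differences, and TFEB (-2.87 ± 0.42), FUCA1 (-2.77 ± 0.17) and CTSH (-1.12 ± 0.15) had negative ones. TFEB and FUCA1 start in SKNO-1 from 0.12 and 0.0846 and from 2.19 and 2.71 CPM.

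With both agents the difference was positive for 31 members and negative for 3. CTSD (3.15 ± 0.34), GRN (2.18 ± 0.36) and PSAP (2.08 ± 0.15) led, and TFEB (-2.32 ± 0.41), FUCA1 (-1.03 ± 0.17) and CTSH (-0.63 ± 0.15) were the 3 that rose less in U-937. The part of the cell line, of GM-CSF in the SKNO-1 medium and of the starting level in these differences cannot be told apart.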

How the results depend on the processing

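No called value of a named member changed sign under the alternatives run. TFE3 with ATRA in SKNO-1, not called at log2 -0.074, was at 0.067 without ATRA library 1 and 0.169 without DMSO library 1, within a range of -0.355 to 0.169 with a library left out. Among 100 values of named members, 1640 alternative values kept direction and call in 1534 cases, lost the call in 97, gained it in 7 and changed sign in 2, over 21 of the 100. The counts of called members stayed within 1.5 times in U-937 against DMSO (leaving out a library gave 27 to 34 with ATRA, 12 to 19 with Corin and 37 to 40 with both), and in SKNO-1 with Corin (21 to 32) and with both agents (23 to 35).

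The SKNO-1 count with ATRA, 8, was 5 with a replicate block, 13 with the GC trend removed, 13 with a replicate block and the GC trend removed, 1 with only the 4 libraries compared, and 2 to 24 with a library left out. The count for both agents against Corin in SKNO-1, 8, was 15 with no low-count filter, 17 with the GC trend removed, 16 with a block as well, 26 with only the 4 libraries compared, and 2 to 26 with a library left out. The count for additivity in SKNO-1, 0, was 1 by DESeq2, 5 with no low-count filter, 3 with the GC trend removed, 3 with a block as well, and 0 to 20 with a library left out. The count for additivity in U-937, 11, was 17 with the GC trend removed and 9 to 13 with a library left out. The count for the Corin response between lines, 15, was 8 to 20 with a library left out. The balance of higher and lower calls turned in SKNO-1 with ATRA without DMSO library 2 (8 higher and 16 lower, against 6 and 2), in U-937 additivity under 8 alternatives, to as far as 12 above and 5 below with the GC trend removed, against 5 and 6, and in the Corin response between lines without U-937 Corin library 1 (4 and 5, against 9 and 6) and with a replicate block and the GC trend removed (8 and 10). The cause was not tested. The replicate block moved 1 of 16 counts by over 1.5 times.

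Library totals in place of TMM moved the median over all genes between lines from -0.01 to 0.15 with DMSO and from -0.11 to -0.26 for the response to both agents, with 25 members higher and 11 lower, and 27 and 4. For U-937 the same change moved it from 0.03 to -0.09 (both against DMSO) and from 0.02 to -0.11 (both against Corin), with 38 higher and 1 lower, and 30 and 2. With 2 libraries a group, small changes and genes of few counts (CTSL, ACP5, ATP6V0A1 and ATP6V0D2 in U-937) were beyond this depth.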

Other observations

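Among the further lysosomal genes some were nearly absent from 1 line, in values chosen after they were seen. GPNMB, a glycoprotein of macrophage lysosomes, lay between 247 and 364 CPM in the U-937 libraries and between 0.369 and 2.79 CPM in SKNO-1. FNIP1, a partner of folliculin, lay between 83.1 and 113 CPM in SKNO-1 and between 0.814 and 1.66 CPM in U-937. CTSF, encoding cathepsin F, had 0 counts in every U-937 library and lay between 0.869 and 2.67 CPM in SKNO-1. SGSH, a sulfamidase of heparan sulfate breakdown, lay at 0.207 CPM or less in U-937 and between 0 and 4.61 CPM in SKNO-1. Its SKNO-1 libraries thus did not all lie above those of U-937.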
